A study of Homo sapiens with 7 samples.

Results

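The 3 control libraries of a GRASLND knockdown experiment in 501Mel, of 7 libraries in all, were described here on their own. 501Mel is an established human melanoma cell line. The control cells carried a doxycycline-inducible short hairpin RNA against lacZ, a bacterial gene that human cells lack, and were labelled shlacZ, dox-induced. The other libraries carried the hairpins sh4 (n = 2) and sh8 (n = 2) and were used only to see whether libraries with the same replicate number moved alike. Thus every control library shares the hairpin vector and doxycycline (2 µg per mL for 3 days per the methods of the study), and no library of the unmodified line was analysed here. The controls were chosen by their label alone. Because they form 1 group, the values below are levels and spreads and no test was run.

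Melanocytes derive from the neural crest and make melanin in melanosomes, using tyrosinase and its relatives. The transcription factor MITF, working with SOX10 and PAX3, drives the pigment genes. Melanoma cells are known to occupy states along this lineage, from a melanocytic state rich in MITF and pigment genes, through a neural crest-like state marked by genes such as NGFR, to an undifferentiated, invasive state with mesenchymal genes. A line can be placed by which of these sets it transcribes.

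Pigment gene promoters are where MITF is known to bind, at a CATGTG core preceded by a T. The RefSeq promoter windows of the tyrosinase family are shown because its 3 members, TYR, TYRP1 and DCT, were among the 10 highest pigment genes in these cells. Each window runs from 250 bases before to 50 bases after an annotated start, read 5′ to 3′ on the strand of the gene in GRCh38.p14. Capitals mark TCATGTG or its reverse complement CACATGA.
TYR (tyrosinase, first step of melanin synthesis; chr11:89177625-89177924, plus strand): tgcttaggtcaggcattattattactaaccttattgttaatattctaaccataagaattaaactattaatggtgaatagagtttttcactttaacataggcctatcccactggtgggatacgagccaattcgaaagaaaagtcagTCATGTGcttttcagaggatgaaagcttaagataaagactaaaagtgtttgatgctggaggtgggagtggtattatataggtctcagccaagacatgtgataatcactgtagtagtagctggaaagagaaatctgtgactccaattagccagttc
TYRP1 (tyrosinase-related protein 1; chr9:12693135-12693434, plus strand): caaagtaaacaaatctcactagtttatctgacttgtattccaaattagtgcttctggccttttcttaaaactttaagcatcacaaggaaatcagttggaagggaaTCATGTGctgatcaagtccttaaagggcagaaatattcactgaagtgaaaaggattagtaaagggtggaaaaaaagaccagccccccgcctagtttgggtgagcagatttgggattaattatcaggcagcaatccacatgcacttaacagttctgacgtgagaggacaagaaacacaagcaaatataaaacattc
DCT (dopachrome tautomerase; chr13:94479633-94479932, minus strand): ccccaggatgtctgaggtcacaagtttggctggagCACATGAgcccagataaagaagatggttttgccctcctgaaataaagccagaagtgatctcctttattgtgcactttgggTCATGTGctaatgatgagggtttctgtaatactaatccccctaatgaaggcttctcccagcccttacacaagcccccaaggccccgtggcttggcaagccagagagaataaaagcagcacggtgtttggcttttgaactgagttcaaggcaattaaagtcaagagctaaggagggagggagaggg

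The match began 105 bases before the start in TYR, 145 in TYRP1, and 215 (opposite strand) and 135 in DCT. Over both strands, TCATGTG was found in 2.92% of all 35116 promoter windows and in 8 of the 52 windows (15.4%) of the 25 pigment genes with an entry, 1 window each for CD63, DCT, GPNMB, GPR143, SLC24A5, TSPAN10, TYR and TYRP1. CACGTG, an E-box that shares no whole match with TCATGTG, was found in 7.26% of all windows and in 3 of those 52. PMEL and SLC45A2 were among the genes with no entry. A match describes letters in a window, and binding was not measured.

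The 5 genes that mark the melanocytic lineage were all abundant in every control library. Levels between genes are given per length, that is, normalized count per kilobase of exon scaled to a sum of 1000000 per library, and are called per-length levels. PMEL, which builds the melanosome fibrils, was at 1639, 1395 and 1362 in libraries 1, 2 and 3 (mean 1465 ± 151 SD, n = 3). It ranked 12 of the nuclear protein-coding genes. The per-length level of TYR was 569, 427 and 502 (499 ± 71.1). MITF (chr3:69739456-69968336, hg38) was at 499, 374 and 323 (399 ± 90.7) on this scale. MLANA, a melanosomal antigen, had per-length levels of 484, 339 and 355 (393 ± 79.2), and SOX10 had 287, 238 and 260 (262 ± 24.3). Library 1 was the highest of the 3 for each of these 5 genes on the per-length scale, which sets each library against its own total. As normalized counts, by which libraries are compared further on, library 1 was the highest only for MITF (22076, 20552 and 17326) and MLANA (8641, 7531 and 7690). PMEL was then at 35872, 37928 and 36173, SOX10 at 8259, 8523 and 9084 and TYR at 8795, 8192 and 9420, so no library was high or low for all 5. By mean level the order was PMEL, TYR, MITF, MLANA and SOX10. MITF and MLANA differed by less than the SD of either, and the gap between TYR and MITF was similar to their SDs.

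The pigment and melanosome list stood high as a group. All 32 of its genes had a row, and 29 reached a mean per-length level of 10, against 53.3% of the 13528 nuclear protein-coding genes of 200 bases or more (36.4% of all 21116 genes of that length). The median member was at 52.8 and the median nuclear protein-coding gene at 11.4 on the same scale. TYRP1 was the highest member, with per-length levels of 1653, 1887 and 1698 (1746 ± 124), and ranked 7 of the nuclear protein-coding genes. With the canonical transcript as gene length in place of all exons, TYRP1 ranked 18 and PMEL 13. TYR (499 ± 71.1) and CD63 (451 ± 10.4), a tetraspanin of late endosomes and melanosomes, followed PMEL. RAB38, a small GTPase that carries cargo to melanosomes, GPNMB, a melanosomal glycoprotein, and SLC45A2, a transporter needed for pigment, had mean per-length levels of 390, 325 and 315. DCT, at per-length levels of 357, 205 and 183, had the highest value in library 1.

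The lowest pigment members were ATP7A, the copper transporter that loads tyrosinase, at a mean per-length level of 6.38 ± 0.84, and CDH1 at 0.282 ± 0.095. CDH1, the E-cadherin by which melanocytes adhere to keratinocytes, had 10, 8 and 19 reads in the 3 libraries. By contrast CDH3, the P-cadherin gene, was at a per-length level of 50.5 ± 3.5. S100A1 (6.45 ± 2.8) was the third member below 10. None of the 31 members with a mean normalized count of at least 50 had a range over 2-fold between libraries. Of all 11887 such genes 4.49% did, and 0.925% of those with a mean of 1000 or more. In so short a list, none is near that share.

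Among the lineage transcription factors, 15 of 17 with a row reached a per-length level of 10, against 53.3% of nuclear protein-coding genes. After MITF and SOX10 came ETV5 (169 ± 13.8) and ETV4 (98.3 ± 9.9), ETS factors induced by ERK signalling. TFAP2A, a neural crest factor that works with MITF, was at 92.8 ± 12, and PAX3 was at 35, 32 and 30 in the 3 libraries on the per-length scale. TFEB (4.69 ± 1.4), a relative of MITF that controls lysosomal genes, and TFAP2C (1.27 ± 0.49) were the lowest. The other 2 genes of the list were not analysed here.

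**Figure D1:**
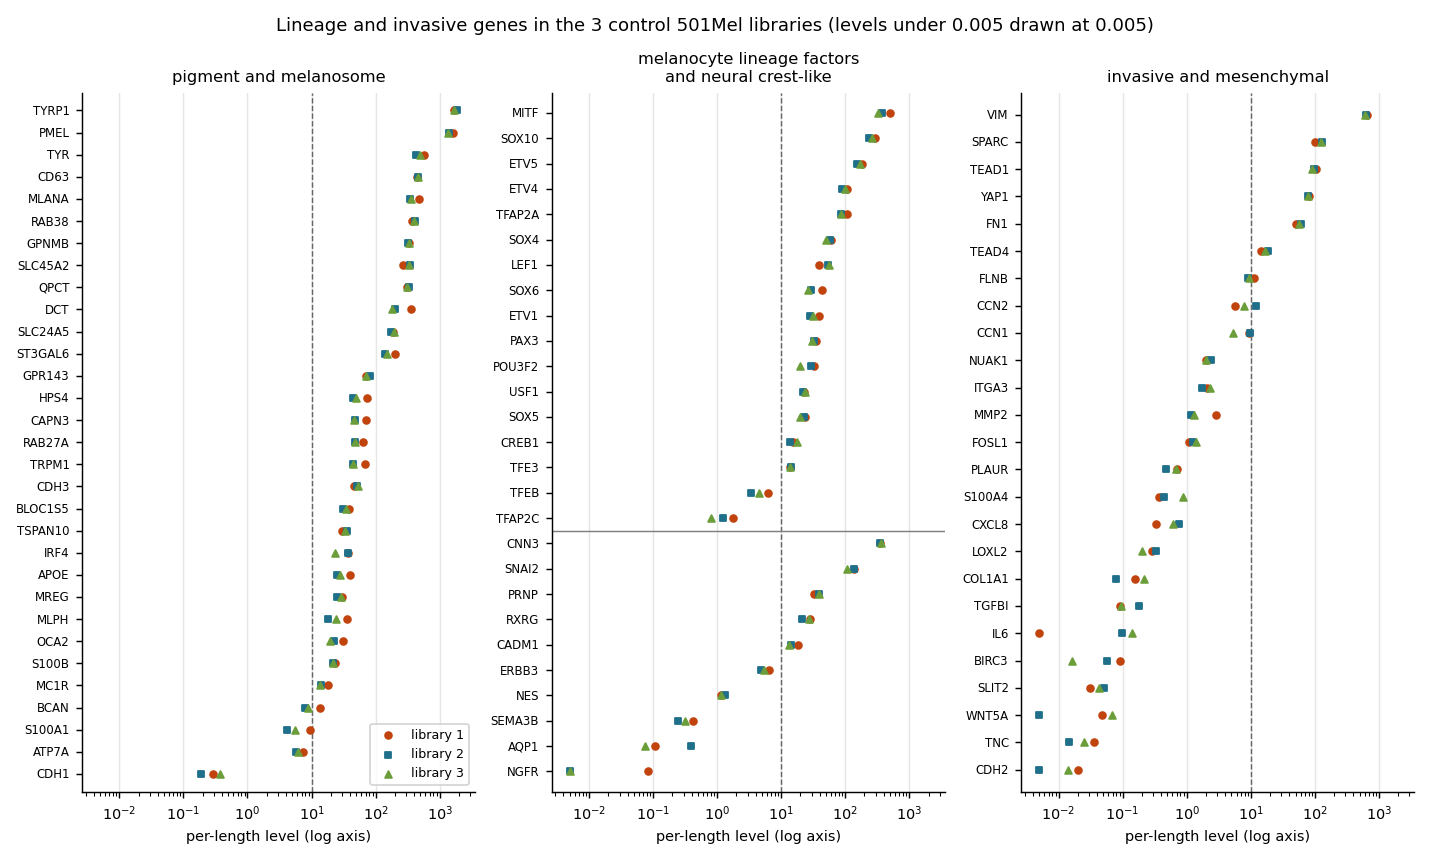
Per-length levels (normalized count per kb of exon, log axis) of the pigment, lineage factor, neural crest-like and invasive lists in the 3 control libraries, 1 point per library, with levels under 0.005 drawn at 0.005 and a dashed line at 10. Of the lists, 29 of 32 pigment genes and 6 of 26 invasive genes have a mean of 10 or more, and 1 member of each is not drawn.

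The invasive and mesenchymal list was divided. Of 37 genes, 26 had a row, and 6 of these reached a mean per-length level of 10 (53.3% of nuclear protein-coding genes did), while 13 were under 1. The share of nuclear protein-coding genes under 1 was not counted, here or for later lists. As a guide, the transcription factor FOXC2, at a mean per-length level of 1.08, stood above 18.8% of those genes. VIM, the intermediate filament vimentin, was at 647, 620 and 612 (626 ± 18.7), higher than TYR. SPARC, a secreted matrix protein, was at a mean per-length level of 118 ± 16.5, and FN1, fibronectin, at 55.8 ± 5.22. The Hippo pathway effectors TEAD1 (97.7 ± 7.61), YAP1 (78.7 ± 1.56) and TEAD4 (16.7 ± 2.1) made up the rest of the 6.

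The other end of the invasive list was close to the counting limit. CDH2, the N-cadherin gene, had 1, 0 and 1 reads. TNC, tenascin C, had 2, 1 and 2 reads. WNT5A, a ligand of invasive melanoma cells, had 2, 0 and 4 reads. Several targets of YAP and TEAD sat between these ends, with CCN2 at a mean per-length level of 8.6 ± 3.2 and CCN1 at 8.18 ± 2.5. CCN2 was the 1 member with a range over 2-fold, of 12 with a mean of at least 50, against 4.49% of all 11887 such genes. Its normalized counts were 80.5, 209 and 134. The other 11 genes were not analysed here.

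The median log2 level, taken as log2(per-length level + 0.1), was higher for the pigment list than for the invasive list by 6.09, 5.46 and 5.31 in the 3 libraries (mean 5.62 ± 0.41 SD). The difference lay in the same direction in all 3, and library 1 had the widest. These medians cover only members with a row.

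The neural crest-like list was represented by 10 of 22 genes. Of these 10, 5 reached a per-length level of 10, close to the 53.3% of nuclear protein-coding genes. Both shares leave out genes without a row, so they do not describe all 22 names. CNN3, an actin-binding calponin, was at 352, 351 and 363 on this scale, and SNAI2, a zinc finger factor of neural crest cells, was at 136, 137 and 107. PRNP (36.9 ± 3.5) and RXRG (25.7 ± 3.6), a retinoid receptor, were the next. NGFR, the defining receptor of the neural crest-like state, had 2, 0 and 0 reads, and AQP1, a water channel, had 2, 9 and 2. The neuregulin receptor ERBB3 had a mean per-length level of 5.54 ± 0.75. The other 12 genes were not analysed here. The median log2 level of the pigment list was above that of this list by 2.62, 2.46 and 2.45 in the 3 libraries (mean 2.51 ± 0.097).

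Among the factors of the epithelial to mesenchymal transition, ZEB2 and SNAI2 are known to be present in normal melanocytes. SNAI2 (127 ± 17) and ZEB2 (63.6 ± 12.5) were the highest by mean per-length level, followed by TWIST1 (44.8 ± 1.6) and TCF3 (34.8 ± 1.5). TCF4 (0.552 ± 0.22) and SNAI3 (0.116 ± 0.072) were the lowest of the 8 with a row. SNAI1 varied by 2.11-fold, at normalized counts of 36.1, 58.7 and 77.4. The other 5 genes were not analysed here.

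Lists of markers of other cell types that a culture could hold were mixed, with fibroblast genes near 0 and some immune, keratinocyte and neuronal genes at or above the level of the median messenger. The summed per-length level of 5 fibroblast genes was between 0.37 and 0.883 over the 3 libraries, and 5 of 5 were under 1. Of the immune cell list CD68, a lysosomal protein, was at a mean per-length level of 39.1 ± 11.6, while GNLY, LYZ and ITGAM were under 1. PERP (41.8 ± 2.97), a desmosomal p53 target, and KRT10 (11.9 ± 1.1) were the keratinocyte genes above 10. ESRP1, an epithelial splicing factor, was at 7 ± 0.89, and the endothelial adhesion gene ESAM at 0.33 ± 0.11. In the neuronal list TUBB3 (27.9 ± 2.9), ENO2 (26.7 ± 2.9) and MAP2 (17.9 ± 7.8), which are also known from melanoma cells, passed 10, and GAP43 (0.257 ± 0.12) and SNAP25 (0.0847 ± 0.069) were lowest. Of these lists 8 keratinocyte, 9 epithelial, 7 fibroblast, 12 immune, 8 endothelial and 8 neuronal genes were not analysed here, so they check only part of each cell type.

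The most abundant RNAs overall were small nuclear-encoded non-coding RNAs and mitochondrial messengers. Ribosomal RNA had been depleted and polyadenylated RNA had not been selected, so such RNAs enter the libraries. RN7SK, which holds back the elongation factor P-TEFb, had per-length levels of 77172, 85181 and 92550. RN7SL2 and RN7SL1, near-identical RNAs of the signal recognition particle, were at means of 57687 ± 12692 and 53191 ± 13024, lowest in library 1. MT-CO1, a cytochrome oxidase subunit, was the highest mitochondrial messenger at 44917 ± 5019. Of the 20 most abundant genes of 200 bases or more, 12 were mitochondrially encoded, 7 were nuclear non-coding RNAs (RN7SK, RN7SL1, RN7SL2, RN7SL3, RMRP, SNORD3A and RPPH1) and 1 was a nuclear messenger, EEF1A1.

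These 20 genes held 50.1%, 52.6% and 53.2% of the per-length total in libraries 1, 2 and 3 (mean 52% ± 1.66 SD). As a share of normalized counts, mitochondrial messengers made up 10.9% ± 0.249 and nuclear messengers 82.9% ± 0.22. The 5 highest shorter genes were the spliceosomal U2 (13254 ± 5740), RNU2-1, RNU1-1 and RNU2-2P and the microRNA gene MIR3648-1. Per-length levels of such short RNAs depend on fragment length, and RNU2-1 and U2 are near-identical copies.

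**Figure D2:**
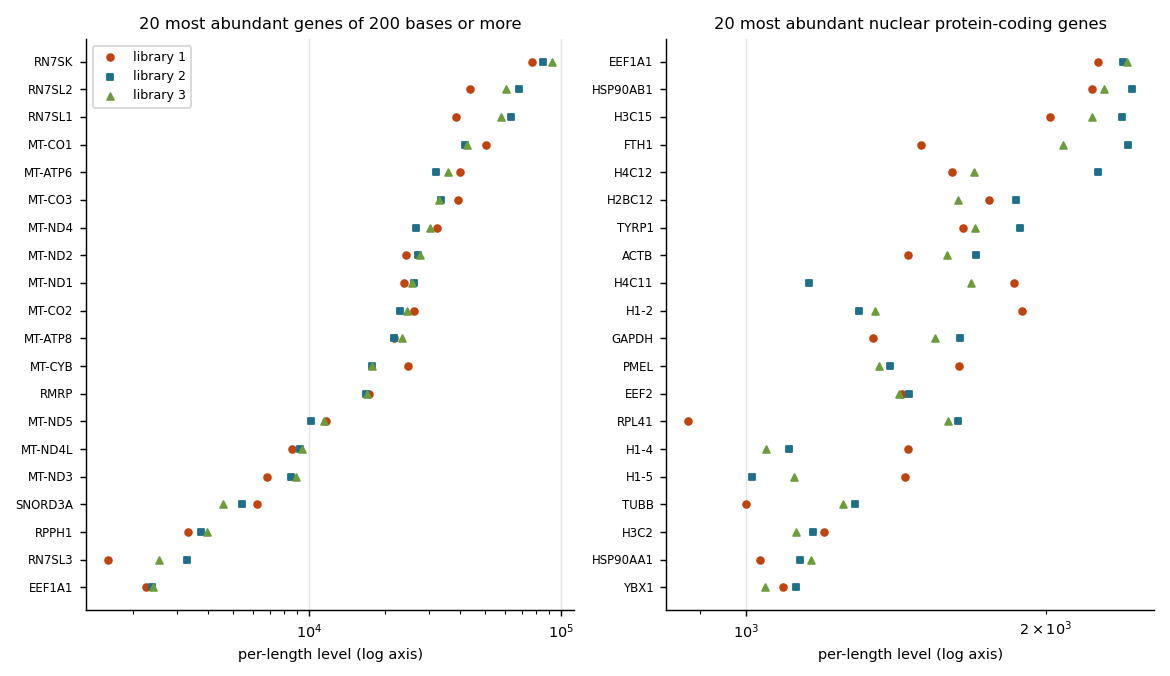
Per-length levels (log axis) in the 3 control libraries, 1 point per library, of the 20 most abundant genes of 200 bases or more (left) and of the 20 most abundant nuclear protein-coding genes (right). TYRP1 and PMEL sit between housekeeping genes at ranks 7 and 12, and RPL41 and FTH1 are lowest in library 1.

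Among nuclear messengers, pigment genes stood beside translation factors, chaperones and histones. EEF1A1, the elongation factor that brings tRNA to the ribosome, was highest at a per-length level of 2354 ± 82.9, and the chaperone HSP90AB1 followed at 2319 ± 112. H3C15, a replication-dependent histone, was at 2210 ± 184, and FTH1, the ferritin heavy chain, at 2000 ± 465. ACTB (1584 ± 124) and GAPDH (1511 ± 152), common reference genes, were within 1 SD above PMEL. Of the 40 highest, a list drawn up after the values were seen, 16 were replication-dependent histones, whose messengers lack a poly(A) tail, 9 were ribosomal proteins, and 2 were pigment genes. Histone genes have near-identical copies, so the level of a single one is uncertain.

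Proliferation genes were all transcribed. Each of 30 reached a per-length level of 10 (against 53.3% of nuclear protein-coding genes), with a median of 70.8. PCNA, the replication clamp, was at 513 ± 29.8, MKI67 at 242 ± 26, TOP2A at 217 ± 25 and CCND1, cyclin D1, at 436 ± 56.7. CDK2 (518 ± 100.2) lies within the span of PMEL on the opposite strand, so its level is uncertain unless strand was used in counting. The lowest members were CCNE2 (17.7 ± 2) and CCND3 (13.1 ± 2.3). None of the 30 had a range over 2-fold between libraries, which is near the 4.49% of all 11887 genes with a mean of at least 50. Yet 25 of the 30 were lowest in library 1, against 51.4% of those genes. Their median log2 difference there from the mean of the other libraries was -0.28.

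Of the melanoma driver and suppressor genes, 37 of 39 with a row reached a per-length level of 10, against 53.3% of nuclear protein-coding genes. CCND1, CTNNB1 (330 ± 13) and NRAS (214 ± 7.6), members of the cell cycle, WNT and MAPK pathways, were the highest. CDKN2A, the p16 and p14ARF gene, was at 52.1, 56.5 and 61.4. BRAF (7.23 ± 1.96) and CDKN2B (5.36 ± 2) were the members under 10. The annotated exons of BRAF cover 23433 bases, which lowers its per-length level. ERK feedback genes, which rise with ERK output, reached 10 in 13 of 15 cases, against the same 53.3%. DUSP6 was at 59.6 ± 7.7 and SPRY4 at 38.3 ± 13. Mutations were not examined.

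Receptors were uneven. MET, the HGF receptor, had per-length levels of 264, 245 and 244, EDNRB, the endothelin receptor of the melanocyte lineage, 185, 164 and 187, and KIT, the stem cell factor receptor, 107, 85.7 and 79.3. IGF1R was at a mean of 132 ± 25. The list had 7 of 21 members at 10 or more, against 53.3% of nuclear protein-coding genes. A further 9 were under 1, with NTRK2 (0.019 ± 0.014) and FLT1 (0.0171 ± 0.015) the lowest. By comparison, 18.8% of nuclear protein-coding genes were below a level of 1.08. The other 7 receptors were not analysed here.

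Cancer-testis antigens, genes of the germ line that tumours reopen, were transcribed in part. Of 31 names 23 had a row, and 19 reached a per-length level of 10, where 53.3% of nuclear protein-coding genes did. PRAME was the highest at 286, 252 and 246 (261 ± 21.5), then MAGEB2 (116 ± 8.9), MAGEA3 (105 ± 9.06) and SSX2 (104 ± 6.8). MAGEA10 (2.18 ± 0.58) and MAGEA1 (1.66 ± 0.14) were the lowest. Many of these genes are near-identical copies on chromosome X, so their reads may be split between members. The other 8 genes were not analysed here.

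The antigen presentation list held both abundant and low members. CALR (542 ± 82.5) and CANX (192 ± 6.6), chaperones that fold class I molecules, and B2M (111 ± 6.12), their light chain, were the highest by per-length level. The heavy chains differed, with HLA-C at 27.1, 25.8 and 25.6 and HLA-B at 2.99, 2.3 and 2.7. HLA-B was below HLA-C in every library, although reads of these polymorphic genes may align unequally to one reference. The peptide transporter TAP1 (3.71 ± 1.04), the immunoproteasome subunits PSMB8 (2.23 ± 0.559) and PSMB9 (0.607 ± 0.321), and the class I transactivator NLRC5 (0.185 ± 0.119) were low. HLA-G (0, 3 and 4 reads) was the lowest of the list. Over the list 11 of 21 reached 10, close to the 53.3% of nuclear protein-coding genes.

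The MHC class II genes with a row were all under a per-length level of 1, including the transactivator CIITA (16, 11 and 9 reads) and the invariant chain CD74 (2, 2 and 1 reads). The other 5 class II genes were not analysed here. Of the interferon-stimulated genes 5 of 23 reached 10, against 53.3% of nuclear protein-coding genes. A further 10 of this list were under 1, while 18.8% of nuclear protein-coding genes were below 1.08. EIF2AK2, the double-stranded RNA kinase PKR, was at 50.1, 38.5 and 42.3 on the per-length scale and was the highest, and IFI6 (28.4 ± 8) and STAT2 (21.8 ± 6.8) were also above 10. OAS2 (0.0362 ± 0.018) and GBP2 (0.0331 ± 0.022) were the lowest. Among checkpoint ligands LGALS3 (276 ± 30), a galectin, ENTPD1 (63.5 ± 14), TNFRSF14 (55.7 ± 22) and CD276 (35.4 ± 0.52) led, and CD274, encoding PD-L1, had a mean per-length level of 0.905 ± 0.472.

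**Figure D3:**
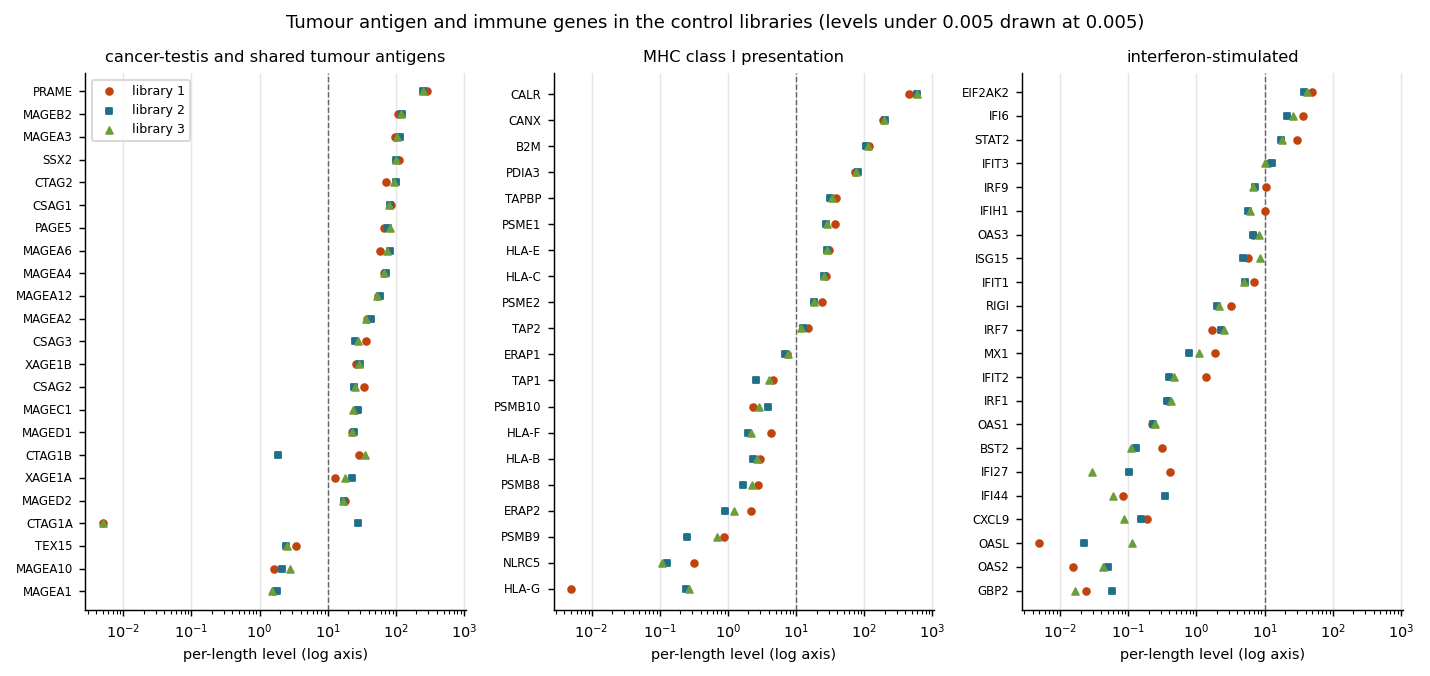
Per-length levels (log axis) of cancer-testis antigens, MHC class I presentation genes and interferon-stimulated genes in the 3 control libraries, 1 point per library, with levels under 0.005 drawn at 0.005 and a dashed line at 10. Of the lists, 19 of 23, 11 of 21 and 5 of 23 genes reach a mean of 10 (1 member of each of the last 2 is not drawn), and CTAG1A and CTAG1B split by library.

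Of the long non-coding RNAs listed, MALAT1 (1051 ± 306) was the highest by per-length level, and NORAD (192 ± 16.1) and LINC00520 (140 ± 22.2) followed. NEAT1 had a mean of 195 ± 192 that rested on library 1, with levels of 416, 99.7 and 69.3, and in libraries 2 and 3 it was below both of these. SAMMSON, a melanoma lncRNA next to MITF, was at 9.81, 4.79 and 4.04. GRASLND, the transcript that the other hairpins target, was at a per-length level of 8.77, 7.55 and 6.79 (7.7 ± 1 SD), from 299, 315 and 333 reads, and overlaps RNF144A on the opposite strand. H19 (0.104 ± 0.047) and MEG3 (0.00969 ± 0.0051) were the lowest. The other 5 lncRNAs were not analysed here.

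Metabolic and stress lists differed in how many members were above a level of 10, where 53.3% of nuclear protein-coding genes were. Glycolysis enzymes led the hypoxia list, with GAPDH, ENO1 (570 ± 43), ALDOA (527 ± 38) and LDHA (384 ± 20) highest, and NDRG1 (0.988 ± 0.31) and CA9, the hypoxia-induced carbonic anhydrase, lowest. CA9 had 0 reads in all 3 libraries, which allows up to 3 reads in each. The heat shock list was headed by HSP90AB1, HSP90AA1 (1111 ± 67.7), HSPA8 (742 ± 284) and HSPD1 (302 ± 7.6), and CRYAB (0.109 ± 0.094) and HSPA1A (0.117 ± 0.2) were lowest. HSPA1A is a near-identical copy of HSPA1B. Of 24 cholesterol synthesis genes 20 reached a per-length level of 10, of 26 genes of amino acid and ER stress 19 did, and of 20 p53 targets 7 did, the highest of these being GDF15 (127 ± 55).

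The depth of the controls, taken here as the reads in genes of the table recovered from the normalized counts, was 16304553, 17803009 and 20916951. It is not the number of reads sequenced. A read was seen in all 3 libraries for 19374 of 21305 genes, and 131 genes with a row were at 0 in all 3, of which 61 were protein-coding and 34 lncRNA. Such genes have a row through the other libraries, since no gene of the table had fewer than 10 reads over the 7. Each 0 allows up to 3 reads in that library, and this limit covers counting error only.

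The spread between the control libraries was larger than counting and rested mainly on library 1. For the 11887 genes with a mean normalized count of at least 50, the median SD of log2(normalized count + 1) was 0.182, where counting alone would give a median of 0.0598. The highest library exceeded the lowest by over 2-fold in 534 of these genes (4.49%). The share was 13.6% for genes with a mean between 50 and 200 and 0.925% for those of 1000 or more. Whether the libraries came from separate cultures is not given in the labels.

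Library 1 lay farther from libraries 2 and 3 than these lay from each other. The SD over genes of the log2 difference was 0.464 between libraries 1 and 2, 0.440 between 1 and 3, and 0.273 between 2 and 3. Over 2-fold differences numbered 334, 328 and 61 genes. Of the 534 genes, library 1 was the one outside the closest pair in 373 (69.9%), in 262 as the highest and in 111 as the lowest, against 68 for library 2 and 93 for library 3. Over all 11887 genes it was outside the pair in 57.1%, more often low (4380) than high (2408).

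**Figure D4:**
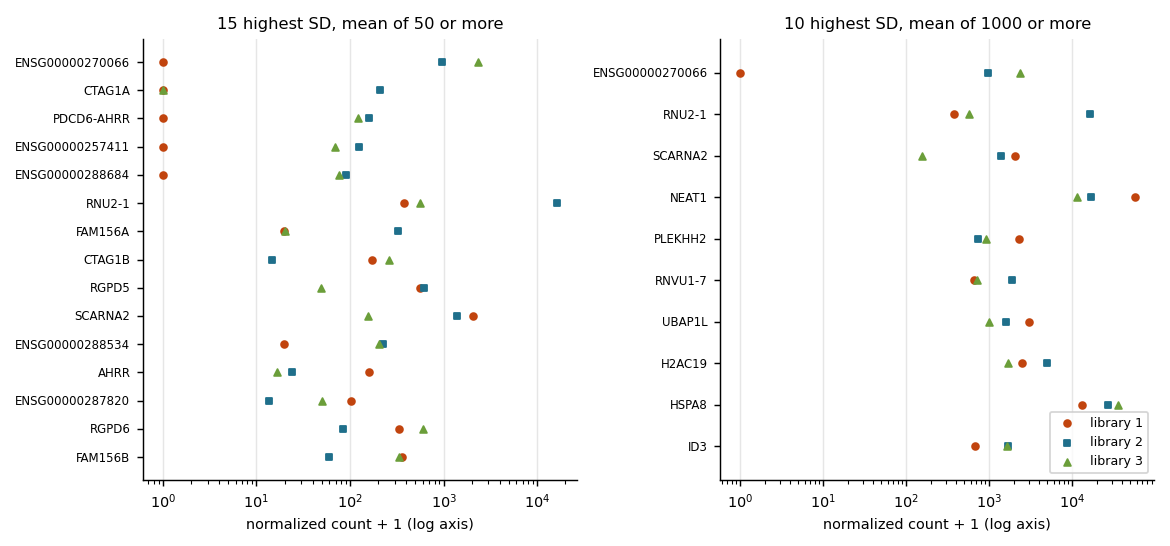
Normalized counts plus 1 (log axis) in the 3 control libraries, 1 point per library, for the 15 genes with the highest SD at a mean of 50 or more (left) and the 10 at a mean of 1000 or more (right). Genes at the left edge had 0 reads in that library, and NEAT1 and PLEKHH2 are high and HSPA8 and ID3 low in library 1.

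The most variable genes were mainly near-identical copies or genes that overlap another. Of the 15 with the highest SD, 7 overlap a gene of the table on the same strand. The share of all genes with such an overlap was not counted, so 7 of 15 cannot be set against it. ENSG00000270066 (chr1:109100193-109100619, hg38), a lncRNA, had normalized counts of 0, 953 and 2343, and SCARNA2, a small Cajal body RNA annotated at the same place, had 2035, 1401 and 153. Their sum was 2035, 2355 and 2496, a range of 1.23-fold. PDCD6-AHRR, a readthrough gene, was at 0, 158 and 122 and AHRR, the aryl hydrocarbon receptor repressor, at 157, 23 and 15.7. With PDCD6 added, their sum was 1639, 1788 and 1625. PDCD6 alone was at 1482, 1607 and 1488 and made up most of that sum, which therefore says little about the other genes. The readthrough loci ENSG00000257411 over ERBB3 and PA2G4, ENSG00000288684 over RIGI and TOPORS, and ENSG00000288534 over TMX2 and CTNND1 were at 0, 0 and 18.6 in library 1 and between 67.8 and 224 in the others. Their sums with these partners were not formed.

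Several copies elsewhere in the genome went in opposite directions. CTAG1A, one of 2 near-identical genes for the antigen NY-ESO-1, had normalized counts of 0, 207 and 0, and CTAG1B had 171, 13.6 and 258. Summed, they were at 171, 221 and 258, a range of 1.51-fold. FAM156A and FAM156B summed to 377, 385 and 349, RGPD5 and RGPD6 to 899, 697 and 650, and RNU2-1 and U2 to 15121, 28027 and 28015. The sums were formed after the values were seen. ENSG00000287820, a lncRNA on chromosome 6 with counts of 102, 12.6 and 49.6, was the 1 gene of the 15 with neither a same-strand overlap in the annotation nor a copy considered here.

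At a mean of 1000 or more the variable genes included ones of known function. NEAT1, the scaffold of paraspeckles, had normalized counts of 56430, 16810 and 11412, so library 1 was 4.94-fold above library 3. PLEKHH2 (2263, 730 and 916) and UBAP1L (2994, 1586 and 985) were also highest in library 1. HSPA8, the constitutive cytosolic HSP70, was lowest there, at 13218, 26713 and 35977, as was ID3, an inhibitor of basic helix-loop-helix factors, at 679, 1675 and 1632. H2AC19 (2466, 5004 and 1677) is a near-identical copy of H2AC18, and their sum had a range of 1.33-fold. RNVU1-7, a variant U1 RNA, was at 649, 1861 and 705.

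Each library had its own outlying genes. In library 1 the highest against the nearer of the others were AHRR, ENSG00000283228 (215, 45 and 35.7), FLJ16779 (1281, 332 and 290), GPC5-IT1 (270, 74.4 and 71.3) and ENSG00000289013, 3 of them lncRNAs. In library 2 DACT1, an antagonist of WNT signalling, stood at 308 against 42.3 and 96.6, and CELF6, an RNA-binding protein, was low at 30.4 against 82.6 and 80.9. In library 3 HSPA1B, the inducible HSP70, was at 1435 against 369 and 583. EGR1, an immediate early factor, was at 1565 there against 654 and 758, and DDIT4, a stress-induced inhibitor of mTORC1, at 360 against 161 and 162. SMN2 (192) and KRCC1 (82.6) were likewise highest in library 3, SMN2 being a near-identical copy of SMN1. SMIM11, FAM86B3P and LINC02248 were lowest in library 3, at 36.5, 33.1 and 73.1.

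Some gene lists differed between libraries by larger medians than the pigment list. For each gene with a mean of at least 50, the log2 value of a library was set against the mean of the other 2. In library 1 the median difference was -0.56 for 23 cholesterol synthesis genes, and 22 of these were lowest in that library, against 51.4% of all 11887 genes, among them MSMO1 (277, 510 and 605). For 12 heat shock genes it was -0.52, and 12 of 12 were lowest there. For 25 genes of amino acid and ER stress it was -0.46, with XBP1, a factor of the unfolded protein response, at 487, 735 and 1165. For the 83 ribosomal protein genes it was -0.41 and 77 were lowest in library 1, including RPL41 (5789, 13414 and 12787). The pigment list, with 31 such members, had medians of 0.01, -0.04 and 0.01 in libraries 1, 2 and 3. PPARGC1A, a coactivator of mitochondrial genes and a known MITF target, was 2.17-fold higher in library 1 than in library 3, at 5429, 2749 and 2500.

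In the ERK feedback list 12 of 15 members were highest in library 3, against 28.1% of all 11887 genes, with a median difference of 0.32, for example DUSP4 (1486, 2418 and 3268) and SPRY4 (1192, 1484 and 2547). Of the 15 immediate early genes with a mean of at least 50, 7 had a range over 2-fold, against 4.49% of all genes. They did not move one way, since EGR1, EGR2, IER2 and IER3 were lowest in library 1 and highest in library 3 whereas FOSB (180, 113 and 54.8) and KLF4 (67.1, 59.7 and 29.6) were lowest in library 3.

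**Figure D5:**
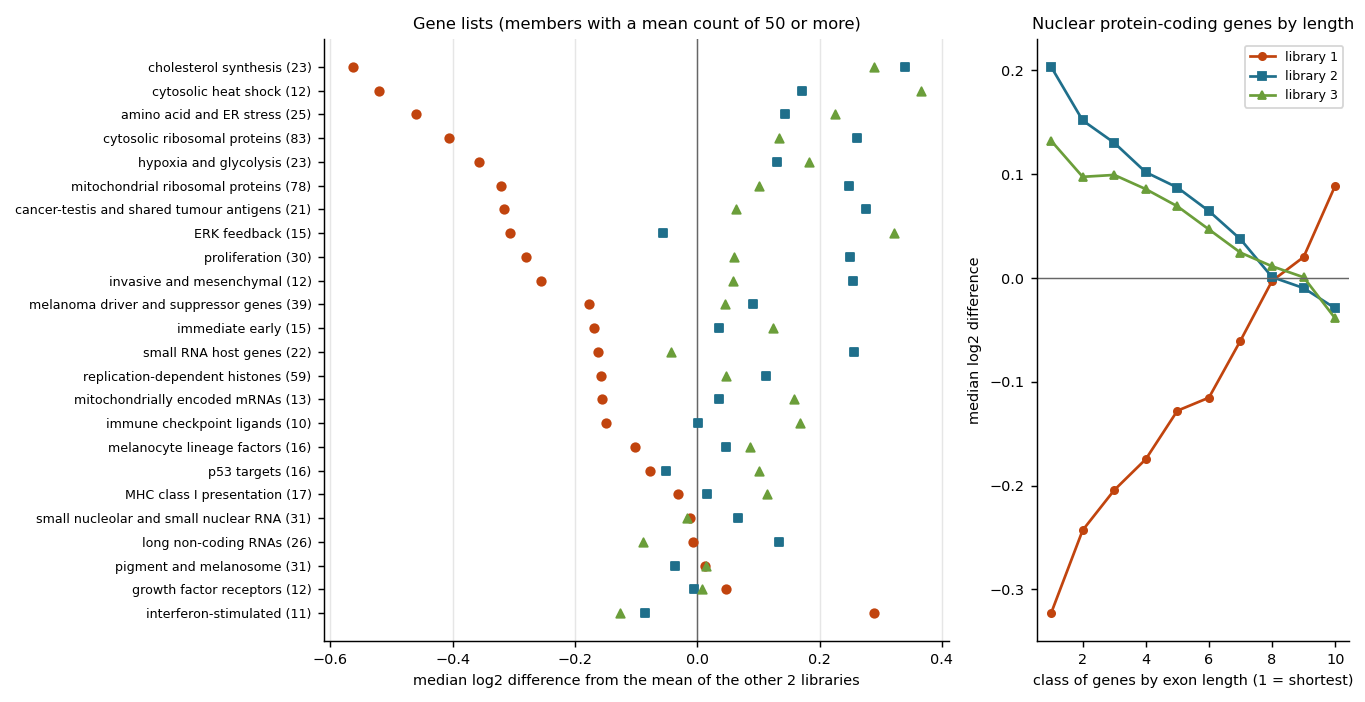
Left, median log2 difference of each control library from the mean of the other 2, for each gene list with at least 10 members at a mean count of 50 or more (their number in parentheses). Right, the same median for nuclear protein-coding genes in 10 classes of equal size by exon length. Library 1 runs from -0.56 for cholesterol synthesis to 0.29 for interferon-stimulated genes, and from -0.32 for the shortest to 0.09 for the longest genes.

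The deviation of library 1 moved with gene class and gene length. Its median log2 difference was -0.11 for protein-coding genes and 0.36 for 990 lncRNA genes, and it was 0.71 for 69 genes of the annotation class TEC, loci with little evidence so far. A range over 2-fold was seen in 155 lncRNA genes (15.7%), against 4.49% of all 11887 genes and 13.6% of those with a mean between 50 and 200. Library 1 stood apart in 110 of the 155, a share near the 69.9% of all 534 genes. It was the highest in 105 of these 110, against 262 of 373 over all genes. As a share of normalized counts, lncRNA genes took 3.29%, 2.25% and 2.24%, and 2.43%, 1.8% and 1.8% without NEAT1 and MALAT1. For nuclear protein-coding genes in 10 classes of equal size by exon length, the median difference of library 1 ran from -0.32 in the shortest class to 0.09 in the longest. In library 2 it ran from 0.2 to -0.03 and in library 3 from 0.13 to -0.04. The part of length or RNA quality in the list differences was not tested.

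The other groups also had a library numbered 1, and part of the pattern recurred there. For the 534 genes, the sign of library 1 minus library 2 was the same in sh4 as in the control for 464 (86.9%) and in sh8 for 344 (64.4%), against 69.9% and 52% over all 11887 genes. The Pearson correlation of that difference with the control was 0.4 in sh4 and -0.04 in sh8 across the 534 genes, and 0.44 and 0.01 across all 11887, given as a description. NEAT1 was higher in replicate 1 of each group, at 67454 and 23311 in sh4 and 40816 and 17297 in sh8. RPL41 was lower in replicate 1 of each, at 7415 and 12233 in sh4 and 6494 and 12850 in sh8. MALAT1 did not keep one direction, being higher in replicate 1 of the control (87296 and 65705) and sh8 (84060 and 74742) and lower in that of sh4 (101957 and 104099). The median of cholesterol synthesis genes in replicate 1 minus 2 was -0.6 in the control, -0.57 in sh4 and -0.19 in sh8, and that of ribosomal protein genes -0.45, -0.19 and -0.26. In the same order, amino acid and ER stress genes had medians of -0.45, -0.26 and -0.28 and heat shock genes -0.45, -0.35 and -0.13. The lncRNA genes had 0.34, 0.19 and 0.14. Several other lists did not recur in sh8. Proliferation genes had medians of -0.33, -0.26 and -0.01, and mitochondrial ribosomal proteins -0.38 and -0.22 in the control and sh4 but were higher in replicate 1 of sh8 for 39 of 78. Interferon-stimulated genes had 0.24, 0.16 and -0.16. Replicate 1 was the shallowest library of each group. The labels do not say that the number marks a shared batch, and the part of depth in this was not tested.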

How the data were processed

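RNA was sequenced from 501Mel cells in 7 libraries, of which the 3 labelled shlacZ were described. Per the labels, ribosomal RNA was depleted and stranded libraries were made, and per the submitters' processing notes reads were trimmed with cutadapt and aligned to hg38 with STAR, whose versions were not given in the sources used here. The study names Salmon for quantification. The authors deposited normalized counts of 21305 genes, a count divided by 1 size factor per library. Unit and normalization were read from the values, since each library has a step, the value of 1 read, of which 100% of its values were multiples (tolerance 0.02). Reads recovered in this way served only for depth and counting limits. Columns of other samples numbered 0.

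Gene lengths (union of exons) came from GENCODE 44, which held 21281 of the identifiers, and gave symbols to genes without one where it could. A union of exons is longer than most transcripts, so per-length levels of genes with many isoforms are low. Per-length levels use a pseudocount of 0.1 on the log2 scale, and normalized counts one of 1. Genes of 200 bases or more entered ranks by level. Spread used genes with a mean of at least 50. The library apart is the one outside the closest pair on the log2 scale. Code was tested on simulated data. Python 3.11.15 with pandas 2.3.3, numpy 2.4.6 and matplotlib 3.10.9 was used.

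Genes named were the 5 lineage markers, the 20 highest and 5 highest shorter genes by level, the 4 highest and 2 lowest of each list with members at 0 (genes without a row are counted only), the 15 (mean of 50) and 10 (mean of 1000) of highest SD, the 5 highest and lowest per library apart, and GRASLND. Others were added after their values were seen. The members, gene lists and alternatives were chosen with earlier results of these data known. Promoter sequences are from RefSeq, GRCh38.p14. Some genes are not reported here.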

Additional observations from a re-analysis of the deposited data

How the results depend on the processing

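The count of genes with a range over 2-fold (534) became 1824 at a minimum mean of 10 and 162 at 200, and lay between 59 (without library 1) and 370 when 1 library was left out. The share of these genes in which library 1 stood apart (69.9%) became 54.6% at a minimum mean of 10, 75.9% at 200 and 76.1% with libraries scaled to equal totals. The median SD between libraries (0.182) ran from 0.0904 (without library 1) to 0.195. The share of the per-length total in the 20 most abundant genes (52%) fell to 44.1% with the longest transcript as gene length and 38.5% with the canonical transcript, a length added after seeing the data, and ran from 51.4% to 52.9% when 1 library was left out. The difference between the pigment and invasive lists (5.62) was 4.75 at a pseudocount 10 times higher. That between the pigment and neural crest-like lists (2.51) was 2.38 at that pseudocount, 2.64 with the longest and 2.73 with the canonical transcript. No value changed sign. The 5 marker levels moved by over 1 SD in 5 of 30 alternatives, all of them another gene length. The alternatives with other size factors could not move them, because size factors cancel in per-length levels. Genes near 0 are limited by depth. No paired analysis was possible because only 1 group was described and no test was run.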

Other observations

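Other gene groups of the control cells were not placed above. The stress factor ATF4, which drives amino acid synthesis genes, had a mean per-length level of 246 ± 24 (SD, n = 3), and the ER chaperone HSP90B1 had 221 ± 14.7. The amino acid transporter SLC7A5 was at 151 ± 17.9 and the disulfide isomerase PDIA4 at 125 ± 17.7, whereas ATF3 (2.59 ± 0.52) and CHAC1 (2.38 ± 0.7), which are induced under strong stress, were the lowest of that list. Among p53 targets MDM2, the ligase that degrades p53, was at 45.4 ± 3.5, AEN at 28.3 ± 1.7 and TNFRSF10B at 26.5 ± 3, and FAS (0.0692 ± 0.013) and TP53INP1 (0.0372 ± 0.033) were the lowest. Of the cholesterol synthesis genes FDFT1 was at 67 ± 0.97, the regulator SREBF2 at 62.4 ± 1.5 and ACAT2 at 56.3 ± 14.

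Of the mitochondrial ribosomal proteins 72 of 78 reached a per-length level of 10, against 53.3% of nuclear protein-coding genes. MRPL3 was at 161 ± 23.4 and MRPS33 at 6.9 ± 0.61. Of the small RNA host genes 16 of 27 did, with SNHG16 at 137 ± 11.5, SNHG3 at 136 ± 11.8 and SNHG28 at 0.0354 ± 0.061. IER3 (145 ± 45.6), MYC (108 ± 8.18), KLF6 (52 ± 5.66) and EGR1 (45.5 ± 20.3) were the highest immediate early genes, and KLF2 (1.54 ± 0.54) and EGR3 (0.921 ± 0.47) the lowest. The histone H3C14 was at 0 in all 3 libraries, each of which allows up to 3 reads, beside its near-identical copy H3C15, the highest histone.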
